A study of Mus musculus with 6 samples.

Results

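The 46 genes described here encode the glycoproteins, matricellular proteins and elastic fibre components of the extracellular matrix, and were taken by symbol from a list of such genes. All 46 were among the 24063 gene symbols counted, and all 46 passed the filter on low counts. RNA was sequenced from lung endothelial cells (ECs) of C57BL6 mice in 2 groups of 3 libraries, to ask which genes differ in the ECs of a lung that grows after pneumonectomy (PNX), in which 1 lung is taken out. The sham group was sham-operated, and the PNX group was taken 7 days after PNX. In both groups the ECs were isolated with anti-CD31 magnetic beads, the mice were males labelled as 8 weeks old, and each library was pooled from 2 mice, so that differences between single mice are not seen. The study's methods give an older age for the operated mice. Replicates 1 and 2 of both groups are labelled as re-used and replicate 3 of both groups is not. The re-used libraries are called the earlier deposit here and replicate 3 the later, names that the labels do not give. Each deposit so defined holds both groups.

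The matrix around blood vessels and alveoli is built from basement membrane, fibrils and elastic fibres. Elastic fibres form when tropoelastin is laid onto a scaffold of fibrillin microfibrils with the help of fibulins and is crosslinked by lysyl oxidases, and in the lung they give the alveolar wall its recoil. Matricellular proteins such as tenascin C and the thrombospondins are structural only in part: they bind cell receptors and growth factors, and are known to be made in development and in healing tissue, by fibroblasts and smooth muscle cells as well as by ECs.

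Fibronectin, the product of Fn1, is the adhesive protein on which many other matrix proteins assemble, and its mRNA carries alternative exons known from embryonic and remodelling vessels. The exons EDB and EDA each encode 1 fibronectin type III repeat. Their sequences are shown because the libraries differed in how often a fragment was counted through them. Fn1 lies on the minus strand of chromosome 1 (GRCm38, chr1:71585520-71653200), the EDB exon of 273 bases at chr1:71613763-71614035 and the EDA exon of 270 bases at chr1:71603660-71603929, both coding. They are written 5′ to 3′ from the GENCODE vM21 transcripts, with the exon in capitals and 10 bases of each neighbouring exon in lower case.
Fn1 EDB exon: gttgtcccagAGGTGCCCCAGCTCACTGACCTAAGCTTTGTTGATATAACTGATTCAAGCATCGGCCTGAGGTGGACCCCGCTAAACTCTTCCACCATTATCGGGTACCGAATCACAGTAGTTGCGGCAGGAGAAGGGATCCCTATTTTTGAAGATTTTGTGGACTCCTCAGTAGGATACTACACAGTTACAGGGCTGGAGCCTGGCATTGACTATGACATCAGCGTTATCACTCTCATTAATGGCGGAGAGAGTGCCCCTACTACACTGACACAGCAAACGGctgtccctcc
Fn1 EDA exon: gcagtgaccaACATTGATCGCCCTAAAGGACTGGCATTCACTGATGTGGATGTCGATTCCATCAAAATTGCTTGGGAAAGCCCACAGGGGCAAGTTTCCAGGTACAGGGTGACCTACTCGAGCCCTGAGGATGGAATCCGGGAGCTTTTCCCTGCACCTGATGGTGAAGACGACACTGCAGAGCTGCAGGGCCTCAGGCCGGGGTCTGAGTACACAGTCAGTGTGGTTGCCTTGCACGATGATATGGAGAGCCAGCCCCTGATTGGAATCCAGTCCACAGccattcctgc

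Tnc (tenascin C, chr4:63959785-64047015, minus strand) and Thbs2 (thrombospondin 2, chr17:14665500-14694235, minus strand) had the 2 highest log2 fold changes of the 46 genes. Their promoters, 250 bases before to 50 bases after a RefSeq start (GRCm38.p6), are shown 5′ to 3′ on the gene's strand, with capitals for a match to TATAAA, the core of the TATA box, on either strand.
Tnc promoter: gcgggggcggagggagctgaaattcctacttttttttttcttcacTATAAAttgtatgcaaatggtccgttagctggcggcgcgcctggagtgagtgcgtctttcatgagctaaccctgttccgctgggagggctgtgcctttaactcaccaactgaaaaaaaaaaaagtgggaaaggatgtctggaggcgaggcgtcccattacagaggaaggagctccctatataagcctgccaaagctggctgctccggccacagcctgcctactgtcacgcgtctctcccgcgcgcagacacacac
Thbs2 promoter: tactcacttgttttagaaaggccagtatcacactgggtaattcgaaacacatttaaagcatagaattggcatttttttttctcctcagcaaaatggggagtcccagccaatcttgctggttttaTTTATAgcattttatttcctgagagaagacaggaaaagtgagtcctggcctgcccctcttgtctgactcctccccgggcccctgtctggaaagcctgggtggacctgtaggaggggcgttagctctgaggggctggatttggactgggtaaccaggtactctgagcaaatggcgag
The first spans chr4:64046887-64047186, with TATAAA at position -205 from the start, and the second chr17:14694213-14694512, with the match on the other strand at position -126. Only the exact string was searched, and variants of the TATA box were not. The tatataag that lies closer to the start in the Tnc window is therefore in lower case. RefSeq promoters were matched for 30 of the 46 genes, 44 promoters in all. TATAAA was in 20.5% of those 44 promoters and in 13.6% of all 32851, TGACTCA (AP-1) in 4.55% and 5.2%, and CATTCC (TEAD) in 13.6% and 14.7%, each searched on both strands. A promoter was counted once, also where matches on opposite strands shared letters, as those of TATAAA did in Vtn. Promoters of a gene can overlap: 2 Tnc promoters hold the same TATAAA, at -205 in one and -126 in the other, and both were counted. A match describes the letters in this window and is not a bound site.

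The libraries held 29526989 to 81282871 counts, lowest in replicate 3 of each group. Replicates 1 and 2 of a group lay close to counting error (chi-square per degree of freedom 1.57 to 1.75, against 67.9 to 86.4 for pairs with replicate 3) and were summed to 1 sample, which left 4 samples, 2 a group. All 12 endothelial markers examined were present. None was called by edgeR on the 4 samples, with or without a term for the deposit. With that term, 3.89% of all genes were called higher and 1.23% lower. Together the 12 markers summed to 12020 to 14770 counts-per-million (CPM) in sham and 10560 to 11980 in PNX. The bead isolates also held alveolar epithelial markers at 7100 to 9243 CPM in sham and 2494 to 6356 in PNX. The study's methods describe each replicate as its own pool of mice. With replicates 1 and 2 counted as 1 sample, p-values measure the spread between the 4 samples, which may be technical in part.

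In every PNX library, elastin, both fibrillins, fibronectin, tenascin C and thrombospondin 2 had higher CPM than in any sham library, while other genes of the same families, such as Mfap2, Efemp1 and Thbs1, had overlapping groups. Across the 46 genes the median log2 fold change was 0.61, beside a median of -0.01 over the 16598 genes tested, and it was 0.77 within the earlier deposit and 0.48 within the later. In 32 genes PNX was above sham in both deposits, in 6 it was below in both, and in 8 the deposits differed in direction. The same counts over all genes tested are not given here, so these have no background to be read against. All 3 PNX libraries lay above all 3 sham libraries in 23 of the 46 genes (50%), which was the case for 18.8% of all genes tested, and below in 1 gene, Smoc1 (2.17%), against 17.9% of all genes. Since replicates 1 and 2 of a group are near-duplicates, such a separation of libraries is in effect one of 2 samples against 2.

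Whether these differences passed a test turned on the deposit term and on the tool. A call needed a log2 fold change of more than 1 in size together with an adjusted p below 0.01, from edgeR's quasi-likelihood test with Benjamini-Hochberg adjustment over all genes. Without a term for the deposit, 0 of the 46 genes and 0 of the 16598 genes tested (0%) were called, with edgeR adjusted p-values from 0.0720 to 0.997 for the 46, while 20 of the 46 and 2076 of all genes had an unadjusted p under 0.05. With DESeq2 on the same 4 samples, 12 of the 46 were called, all higher, against 2.95% of all genes called higher and 0.494% called lower, and limma's voom called 0. With the deposit as a term in edgeR (the replicate block), which takes the shared difference between deposits out of the spread and leaves 1 residual degree of freedom, 15 of the 46 (32.6%) were called higher, against 3.89% of all genes, and 0 were called lower, against 1.23%. Below, a gene that rose is one called higher in this fit, and where 2 edgeR adjusted p-values are given the first is without the deposit term. Where only the value with the term is given, the gene was not called without it.

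**Figure D1:**
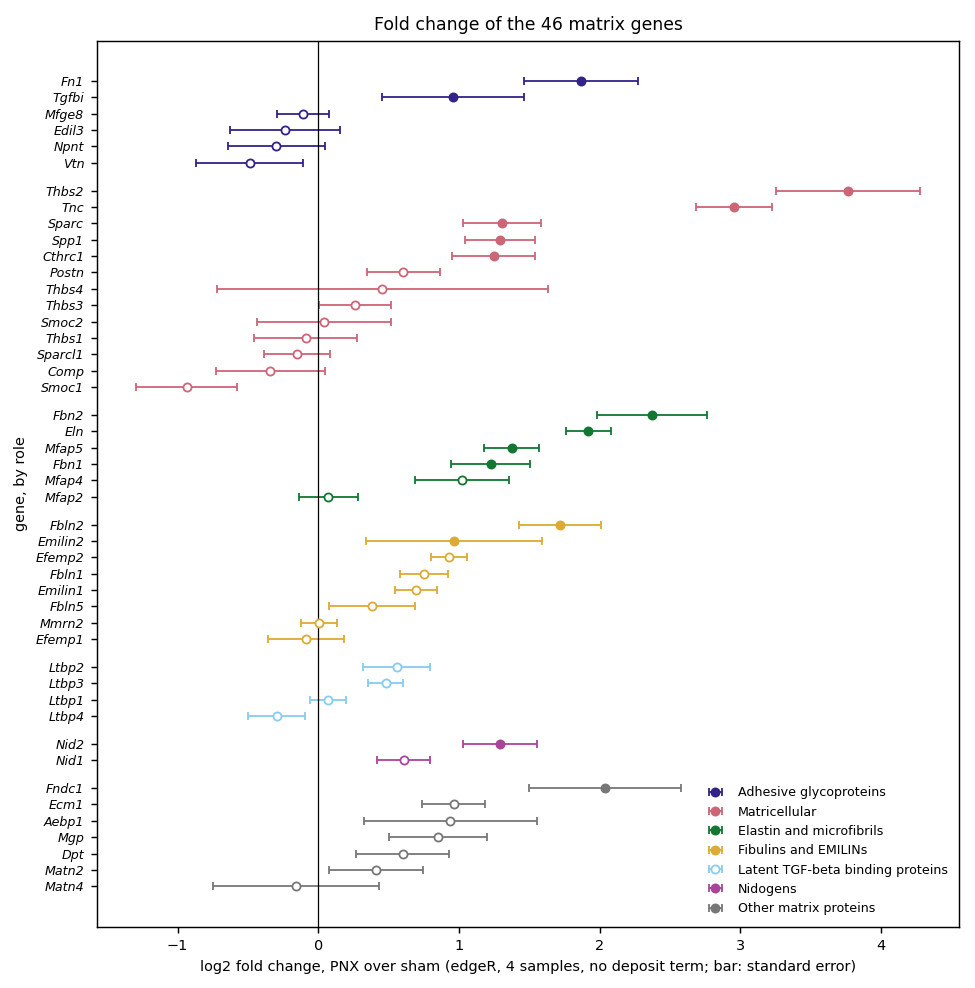
Log2 fold change (x axis) of PNX over sham for each of the 46 genes (y axis, by role), from the edgeR fit on 4 samples without the deposit term; bars are standard errors, filled points are the 15 genes called higher with the deposit term and open points are the other 31. The filled points run from Tgfbi at 0.96 to Thbs2 at 3.77, and the lowest open point is Smoc1 at -0.94.

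The 15 that rose were Fn1 and Tgfbi among 6 adhesive glycoproteins, Tnc, Thbs2, Sparc, Spp1 and Cthrc1 among 13 matricellular genes, Eln, Fbn1, Fbn2 and Mfap5 among 6 genes of elastin and its microfibrils, Fbln2 and Emilin2 among 8 fibulins and EMILINs, Nid2 of 2 nidogens, and Fndc1 among 7 other matrix genes. None of the 4 latent TGF-beta binding proteins was among them. A further 9 genes had an edgeR adjusted p under 0.01 with the deposit term at a smaller fold (Fbln1, Efemp2, Emilin1, Ltbp3, Nid1, Ecm1, Mgp, Aebp1 and Dpt), so that 24 of the 46 were higher at that p at any fold, against 6.22% of all genes, and 0 were lower, against 3.32%. With the 6 libraries as separate replicates, edgeR called 7 of the 46 (Tnc, Thbs2, Spp1, Eln, Fbn2, Mfap5 and Fbln2), against 2.28% of all genes called higher and 0.24% called lower, and DESeq2 called 14, of which 13 are among the 15 and the other is Mfap4, against 4.19% called higher and 1.47% called lower. In that layout the near-duplicate replicates 1 and 2 count as independent. In the annotation, 17 of the 46 genes share exon bases with another gene, among them Fn1 (with Apol7d), Tnc, Eln, Fbn1, Fbn2, Spp1 and Nid2 (with Rtraf). The library kit marks the strand, but whether the counting used it is not stated, so reads of pairs on opposite strands may not be told apart. Spp1 (with Gm42793) and Ecm1 (with Mir7014) share bases with a gene on the same strand, where the strand could not separate the reads.

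**Figure D2:**
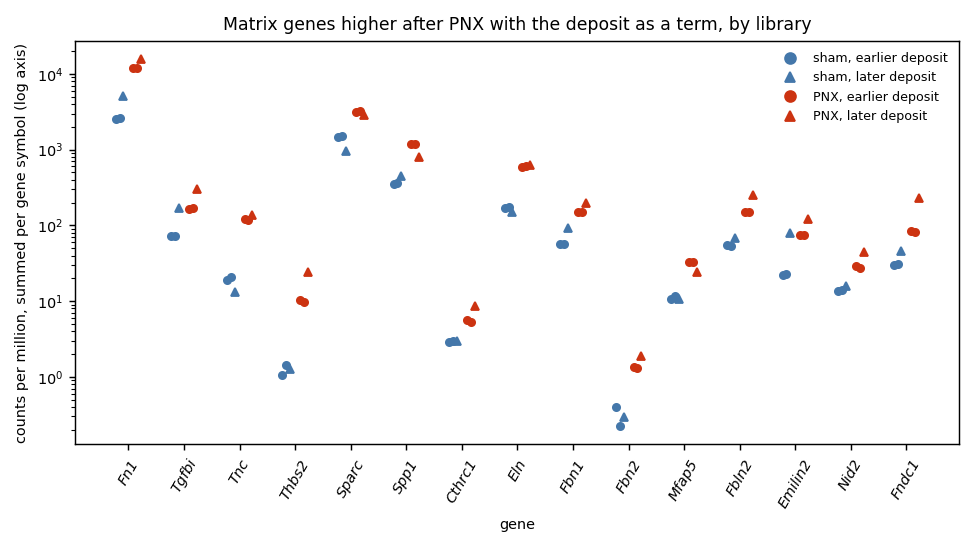
CPM of each library (y axis, log scale, counts summed per gene symbol) for the 15 genes that rose with the deposit term (x axis), sham in blue and PNX in red, circles for the earlier and triangles for the later deposit. The PNX points lie above all sham points except for Tgfbi and Emilin2, whose sham library of the later deposit lies above the PNX libraries of the earlier one.

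Among the adhesive glycoproteins, Fn1 had 2567, 2593 and 5063 CPM in sham replicates 1, 2 and 3, and 11910, 12050 and 15730 CPM in PNX. Each of the 7 RefSeq transcripts of Fn1 held nearly the same count, so these sums count a fragment several times, in both groups alike. The lowest PNX library was above the highest sham library, and within each group the later deposit was higher. The log2 fold change (± its standard error) was 1.87 ± 0.41 at an edgeR adjusted p of 0.174. With the deposit term it was 1.93 ± 0.19 (edgeR adjusted p = 0.000660). Tgfbi, a secreted ligand of integrins that is induced by TGF-beta, had 72.6, 72.3 and 172 CPM in sham and 166, 168 and 305 in PNX. The groups overlapped because sham replicate 3 exceeded the first 2 PNX libraries, but PNX was higher in both deposits, 2.26-fold in the earlier one and 1.81-fold in replicate 3. Its log2 fold change was 0.96 ± 0.50 (edgeR adjusted p = 0.546), and 1.02 ± 0.10 with the deposit term (adjusted p = 0.000763). Without the term it came to 1.70 when sham replicate 3 was left out and 0.45 when PNX replicate 3 was.

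The other 4 adhesive genes had log2 fold changes from -0.49 to -0.11, and none was called. Vtn (vitronectin, an adhesive plasma protein) had 8.66, 8.03 and 7.63 CPM in sham and 7.71, 7.58 and 3.66 in PNX, and Npnt (nephronectin, a ligand of integrin alpha 8) had 2283, 2328 and 2200 in sham and 2425, 2416 and 1251 in PNX. In both genes the low library was PNX replicate 3 alone. Edil3 and Mfge8, integrin ligands with a discoidin domain that bridge cells to phospholipid, had log2 fold changes of -0.24 and -0.11 and overlapping groups.

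The deposited table counts each RefSeq transcript, which lets the alternative regions of Fn1 be followed. The totals of the 7 Fn1 transcripts lay within 2.64% of each other, so that fragments of shared exons were counted on each. The difference of the counts of a pair of transcripts that differ by 1 region was taken as the fragments counted through that region alone. For EDB these were 10, 5 and 11 in the sham libraries and 119, 115 and 104 in the PNX libraries. As a share of the counts of the Fn1 transcript that holds all 3 alternative regions, they were 0.0336%, 0.0187% and 0.0448% in sham and 0.0933%, 0.101% and 0.154% in PNX.

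Every PNX share of EDB was above every sham share, so that the region differed by more than Fn1 as a whole. The ratio of shares, PNX over sham, was 3.65 in the earlier deposit (95% exact interval 2.17 to 6.63) and 3.43 in the later (1.84 to 7.09). For EDA the shares were 0.312%, 0.337% and 0.342% in sham and 0.472%, 0.434% and 0.402% in PNX, a ratio of 1.40 in the earlier deposit (1.20 to 1.65) and 1.18 in the later (0.917 to 1.52). The PNX libraries were above the sham libraries here too, with an interval in the later deposit that includes a ratio of 1.

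Another alternative region, the variable region of 285 bases at chr1:71597388-71597672, took 2.10%, 1.96% and 1.91% of Fn1 counts in sham and 2.21%, 2.12% and 2.08% in PNX. Its ratio was 1.06 in the earlier deposit (0.997 to 1.13) and 1.09 for replicate 3 (0.980 to 1.21), with overlapping groups. These shares are not rates of exon inclusion, since a fragment that also touches a constant exon may be counted on both transcripts. The EDA and variable-region transcripts differ by that region alone, while the EDB pair also differs by 3 and 4 bases at the transcript ends. The intervals cover counting error only. The shares were not tested over the samples, and they are a description chosen after the counts were seen.

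**Figure D3:**
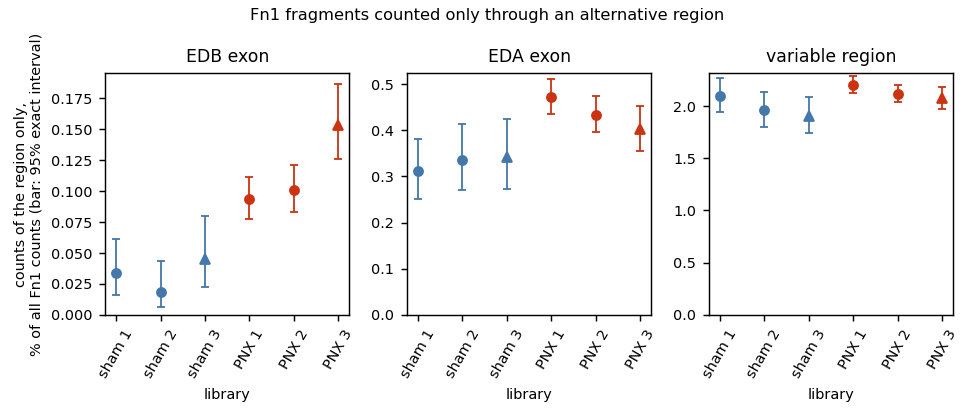
Fragments counted only through an alternative region of Fn1, as a percent of all counts of the Fn1 transcript that holds all 3 regions (y axis from 0, a different scale in each panel), for each library (x axis), with 95% exact binomial intervals. EDB shares are 0.0187% to 0.0448% in sham and 0.0933% to 0.154% in PNX, EDA shares are also higher in PNX, and the variable region is at 1.91% to 2.21% throughout.

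Among the matricellular genes, Thbs2 and Tnc had the highest fold changes. Thbs2, an inhibitor of angiogenesis that binds CD36 and CD47, had 1.04, 1.44 and 1.28 CPM in sham and 10.3, 9.62 and 24.2 in PNX. PNX replicate 3 was higher than the other PNX libraries, and the groups lay far apart. The log2 fold change was 3.77 ± 0.51 (edgeR adjusted p = 0.0880), and 3.50 ± 0.27 with the deposit term (adjusted p = 0.000201). Tnc, which lowers the adhesion of cells to fibronectin, had 19.3, 20.8 and 13.1 CPM in sham and 120, 119 and 138 in PNX. Its libraries agreed more closely within PNX than those of Thbs2, and the log2 fold change was 2.95 ± 0.27 (adjusted p = 0.0720), and 2.96 ± 0.19 with the deposit term (edgeR adjusted p = 8.6e-05).

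Sparc, a collagen-binding protein, was the matricellular gene with the highest summed CPM, at 1475, 1497 and 969 in sham and 3167, 3257 and 2869 in PNX. These sums are over 2 transcripts with the same total, while Thbs1 has 1 transcript. The groups did not overlap, and the log2 fold change was 1.31 ± 0.28 (edgeR adjusted p = 0.172), and 1.34 ± 0.16 with the deposit term (adjusted p = 0.00155). Spp1 (osteopontin, a ligand of integrins and CD44) and Cthrc1 (a secreted protein of remodelling vessels) also rose, with log2 fold changes of 1.28 and 1.18 with the deposit term (edgeR adjusted p = 0.00400 and 0.00655). Both lost the call with the deposit term when sham replicate 2 or PNX replicate 1 was left out, or when another scaling was used. Spp1 also lost it under DESeq2 with the deposit term.

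Postn (periostin, which binds fibronectin and tenascin C) was not called. It had 469, 472 and 535 CPM in sham and 946, 934 and 591 in PNX, so that the groups did not overlap but PNX replicate 3 was nearer to sham. Its log2 fold change was 0.61 ± 0.26 (edgeR adjusted p = 0.449), and 0.57 ± 0.18 with the deposit term (adjusted p = 0.0635), with a fold of 1.96 between the earlier libraries and 1.13 between the replicate 3 libraries. Smoc1, a secreted calcium-binding relative of SPARC, had the lowest value of the 46, at 4.72, 4.61 and 8.08 CPM in sham and 3.74, 3.99 and 2.68 in PNX, a log2 fold change of -0.94 ± 0.36 (edgeR adjusted p = 0.400, and 0.0733 with the deposit term).

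The thrombospondin family was split. Thbs1, the family member with the highest level and like Thbs2 an inhibitor of angiogenesis, had 482, 473 and 967 CPM in sham and 603, 603 and 750 in PNX, with overlapping groups and a log2 fold change of -0.09 ± 0.37 (edgeR adjusted p = 0.962). Thbs3 had a log2 fold change of 0.26 ± 0.26, and Comp, the cartilage oligomeric matrix protein, of -0.34 ± 0.39, with 0.620, 0.475 and 0.446 CPM in sham and 0.471, 0.366 and 0.369 in PNX. Thbs4 went in opposite directions in the deposits, with 7, 7 and 44 counts in the sham libraries against 81, 52 and 22 in the PNX libraries. The remaining genes of the group, Sparcl1 (an anti-adhesive relative of SPARC) and Smoc2, had log2 fold changes of -0.15 and 0.04.

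**Figure D4:**
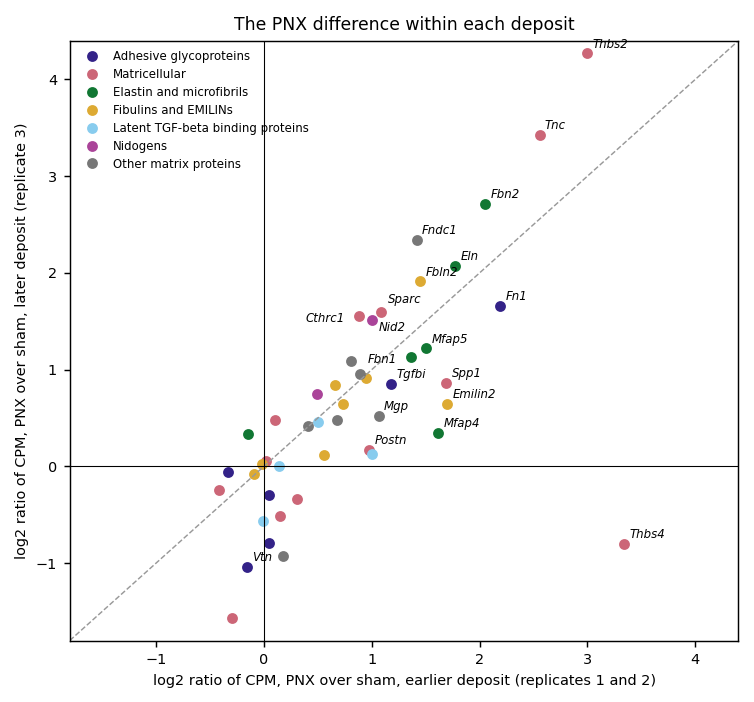
Log2 ratio of CPM, PNX over sham, within the earlier deposit (x axis, replicates 1 and 2 of each group) and within the later deposit (y axis, replicate 3 of each group) for the 46 genes, coloured by role, with a dashed line of equality. Thbs2, Tnc, Fbn2, Eln and Fn1 are high on both axes, Mfap4 and Postn are high on the x axis alone, and Thbs4 lies at 3.34 on the x axis and -0.80 on the y axis.

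Of the genes of elastin and its microfibrils, 4 of 6 rose. Eln, which encodes tropoelastin, had 168, 176 and 151 CPM in sham and 587, 610 and 624 in PNX. The libraries of each group lay close together in both deposits, with a 3.41-fold difference in the earlier and a 4.22-fold difference in the later. The log2 fold change was 1.92 ± 0.16 (edgeR adjusted p = 0.0720), and 1.92 ± 0.11 with the deposit term (adjusted p = 5.5e-05), and it stayed between 1.83 and 1.94 when single libraries were left out.

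Fbn2, the fibrillin that is best known from developing tissue, was the member with the lowest level per length in sham, at 0.397, 0.223 and 0.297 CPM in sham and 1.33, 1.33 and 1.91 in PNX. The groups did not overlap, and the log2 fold change was 2.37 ± 0.39 (edgeR adjusted p = 0.114), and 2.27 ± 0.31 with the deposit term (adjusted p = 0.00295), a call that was lost without sham replicate 2 or PNX replicate 1. Fbn1, the main fibrillin of adult microfibrils, rose by 1.25 ± 0.09 with the deposit term (edgeR adjusted p = 0.000158), and Mfap5, a microfibril-associated glycoprotein, by 1.38 ± 0.11 (edgeR adjusted p = 0.000222).

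Mfap4, a fibrinogen-domain protein that binds elastic fibres, had the highest mean CPM of this group over both conditions, although Eln was above it in PNX, at 219, 218 and 307 in sham and 675, 693 and 383 in PNX. The groups did not overlap, but the difference was 3.07-fold in the earlier deposit and 1.27-fold in the later, and the log2 fold change of 1.02 ± 0.33 was not called (edgeR adjusted p = 0.324, and 0.0365 with the deposit term). Mfap2, the other microfibril-associated glycoprotein, had 119, 122 and 85.6 CPM in sham and 110, 112 and 106 in PNX, with overlapping groups and a log2 fold change of 0.07 ± 0.21.

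Among the fibulins and EMILINs, which join elastin to microfibrils and to cells, Fbln2 had the highest fold change. Summed over its 2 transcripts, Fbln2 also had the highest mean CPM over both groups, although Mmrn2, Efemp1 and Emilin1 were above it in sham. It had 54.9, 54.0 and 67.5 CPM in sham and 152, 151 and 249 in PNX, with no overlap, and a log2 fold change of 1.72 ± 0.29 (edgeR adjusted p = 0.120), and 1.68 ± 0.12 with the deposit term (adjusted p = 0.000138). Emilin2, an elastic fibre-associated glycoprotein, had 22.0, 23.1 and 79.1 CPM in sham and 74.8, 74.6 and 122 in PNX. Its groups overlapped, its deposits differed more than its groups, and it was called only just, at 1.18 ± 0.22 with the deposit term (edgeR adjusted p = 0.00943). Without the term it was 0.97 ± 0.63 (adjusted p = 0.631), 2.12 when sham replicate 3 was left out and 0.56 when PNX replicate 3 was.

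Efemp2 (fibulin 4), which is needed to bring lysyl oxidase to elastin, was one of the most even genes, with 41.6, 41.7 and 44.6 CPM in sham and 80.4, 83.1 and 82.5 in PNX. Its log2 fold change of 0.93 ± 0.08 with the deposit term (edgeR adjusted p = 0.000351) fell short of the fold threshold. Fbln1 and Emilin1, at 0.74 and 0.69 with the term, did so too. Fbln5, a fibulin that binds elastin and integrins, had a log2 fold change of 0.38 ± 0.31 and was not called.

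The lowest values in this group were those of Efemp1 and Mmrn2. Efemp1 (fibulin 3) had 70.0, 68.1 and 101 CPM in sham and 65.1, 67.0 and 94.0 in PNX, a log2 fold change of -0.08 ± 0.27. Mmrn2 (multimerin 2), which is made by ECs and is a ligand of Clec14a, had 103, 108 and 101 CPM in sham and 107, 105 and 101 in PNX. Its log2 fold change was 0.00 ± 0.13 (edgeR adjusted p = 0.997).

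The latent TGF-beta binding proteins, which hold latent TGF-beta in the matrix or take part in elastic fibre assembly, had log2 fold changes from -0.29 to 0.56, and none was called. Ltbp1 had 154, 158 and 170 CPM in sham and 174, 175 and 167 in PNX, and Ltbp4, the most abundant of them in CPM, had 953, 981 and 1278 in sham and 977, 978 and 851 in PNX. The groups overlapped in both. Ltbp2 had 50.9, 52.7 and 75.1 CPM in sham and 104, 108 and 80.4 in PNX, and Ltbp3 had 71.2, 73.1 and 72.7 in sham and 105, 103 and 97.7 in PNX. These did not overlap, and Ltbp3 had the smaller spread, with a log2 fold change of 0.48 ± 0.08 and an edgeR adjusted p of 0.00625 with the deposit term.

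The nidogens link laminin to collagen IV in the basement membrane. Nid2 had 13.5, 14.2 and 15.8 CPM in sham and 28.9, 27.3 and 44.3 in PNX, and rose by 1.24 ± 0.13 on the log2 scale with the deposit term (edgeR adjusted p = 0.000937; 0.163 without it). Nid1 was the more abundant per length, with 184, 179 and 141 CPM in sham and 262, 260 and 231 in PNX. Its groups did not overlap either, but its log2 fold change of 0.62 ± 0.10 with the deposit term (edgeR adjusted p = 0.00492) was below the fold threshold.

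Among the other matrix proteins, Fndc1, which holds fibronectin type III repeats, had 29.9, 31.2 and 45.7 CPM in sham and 83.2, 82.4 and 228 in PNX. PNX replicate 3 was far above the other PNX libraries, and the log2 fold change of 2.04 ± 0.54 (edgeR adjusted p = 0.239), or 1.87 ± 0.20 with the deposit term (adjusted p = 0.000901), came to 1.12 without that library and without the term. Ecm1, a secreted glycoprotein that binds other matrix proteins, had 169, 169 and 203 CPM in sham and 303, 299 and 422 in PNX, at 0.94 ± 0.10 with the deposit term (edgeR adjusted p = 0.00109). Mgp, the matrix Gla protein, an inhibitor of calcification and of BMP signalling, had 443, 453 and 355 CPM in sham and 951, 956 and 501 in PNX, at 0.79 ± 0.14 (edgeR adjusted p = 0.00868). Their groups did not overlap.

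Aebp1, a collagen-binding secreted protein, and Dpt (dermatopontin, which binds decorin) were at 0.92 and 0.58 with the deposit term, with overlapping groups. The lowest of the group were the matrilins, filament-forming adaptor proteins. Matn2 had 7.88, 8.29 and 12.9 CPM in sham and 10.5, 11.3 and 16.8 in PNX, a log2 fold change of 0.41 ± 0.33, and Matn4 had 32.2, 32.3 and 21.5 in sham and 38.2, 35.9 and 11.1 in PNX, a log2 fold change of -0.16 ± 0.59. In Matn4 the deposits went in opposite directions.

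Levels can be compared between genes per transcript length, as transcripts-per-million (TPM) of the most counted transcript of each symbol. On this scale Mgp was the highest of the 46, at 1478 to 1915 TPM in sham and 2120 to 3948 in PNX, place 18 and place 9 in the order of all symbols by group mean. Sparc followed at 458 to 718 TPM in sham and 1379 to 1528 in PNX, moving from place 130 to place 23. Mfap4 came next in sham, at 364 to 505 TPM, and its range held that of Sparcl1 (393 to 420 TPM), so these neighbours in the order did not differ beyond their spread.

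Among the genes that rose, Fn1 had 111 to 216 TPM in sham and 504 to 682 in PNX and moved from place 708 to place 156, and Eln had 99.5 to 118 TPM in sham and 384 to 419 in PNX and moved from place 1022 to place 245. Tnc went from 4.59 to 7.41 TPM in sham to 41.6 to 49.2 in PNX, which is in the range of Fbn1 in PNX (37.1 to 50.2 TPM). Thbs2, at 4.02 to 10.4 TPM in PNX, remained far below Thbs1 (257 to 328 TPM) in spite of its fold change.

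**Figure D5:**
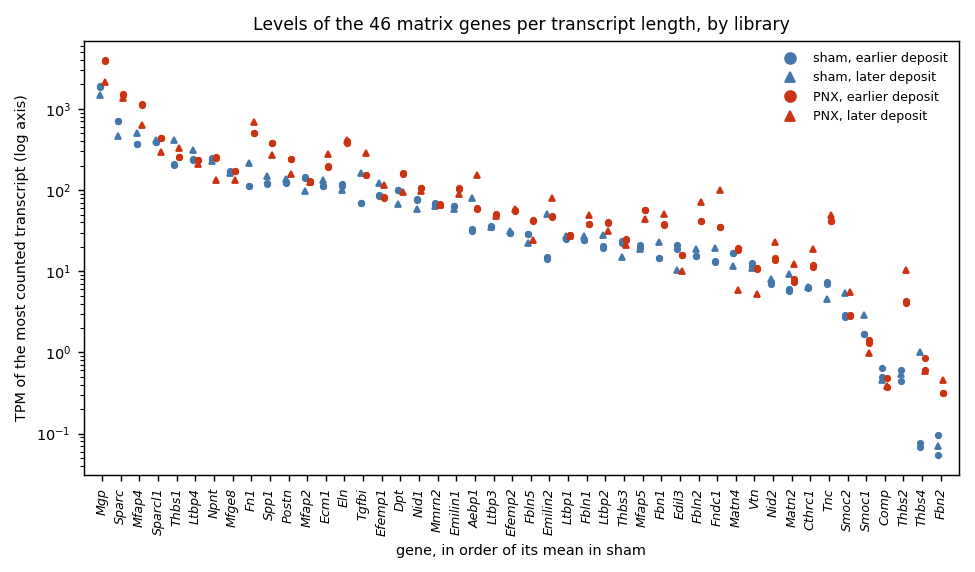
TPM of the most counted transcript (y axis, log scale) of each of the 46 genes (x axis, in order of the sham mean) in each library, sham in blue and PNX in red, circles for the earlier and triangles for the later deposit. Levels run over more than 4 orders of magnitude, from Mgp at 1478 TPM and above to Fbn2 at 0.462 TPM and below, and the red points of Fn1, Eln and Tnc stand above their blue points.

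Genes that act on or receive these proteins were read from 3 further lists. Of 15 receptors, 0 were called in either direction with the deposit term, against 3.89% of all genes called higher and 1.23% called lower. Itgb8 and Sdc4, an integrin chain that activates latent TGF-beta and a syndecan that binds fibronectin, had the highest log2 fold changes, at 1.46 ± 0.31 and 0.67 ± 0.09 with the deposit term (edgeR adjusted p = 0.0163 and 0.00258). Itgb8 was low, at 0.347, 0.251 and 1.10 CPM in sham and 1.02, 1.20 and 2.18 in PNX, with overlapping groups. Without the term its log2 fold change was 1.31 ± 0.75 (edgeR adjusted p = 0.580). Itga8, the receptor chain for nephronectin, and Clec14a, the receptor of multimerin 2, had the lowest, at -0.86 ± 0.19 and -0.78 ± 0.11 with the deposit term (edgeR adjusted p = 0.0195 and 0.00260).

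Of 13 genes of elastic fibre assembly and crosslinking that were tested, Loxl1, Loxl2 and Fkbp10 rose and 0 fell, against the same shares of all genes, 3.89% and 1.23%. Loxl1 and Loxl2, which crosslink elastin and collagen, were at 1.04 ± 0.10 and 1.56 ± 0.13 with the deposit term (edgeR adjusted p = 0.000461 and 0.000278), and Fkbp10, a chaperone of tropoelastin and procollagen, at 1.11 ± 0.08 (edgeR adjusted p = 0.000146). Lox itself was not called, at 0.41 ± 0.13, and the lowest were Adamtsl4 and Adamts10, which bind fibrillin, at -0.25 and -0.19. Of 8 TGF-beta ligands and matrix-response genes, Wisp1, a matricellular target of Wnt signalling, rose by 2.16 ± 0.24 (edgeR adjusted p = 0.00127). Inhba was at 1.61 ± 0.31 (edgeR adjusted p = 0.0115), and Ctgf and Cyr61, common readouts of TGF-beta and YAP activity, were at -0.34 ± 0.14 and -0.43 ± 0.12, neither called.

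Markers of other cell types differed in the same comparison. In bulk RNA, a change in the number of cells of a type and a change in RNA per cell cannot be told apart. The fibroblast list summed to 1110 to 1310 CPM in sham and 3456 to 4910 in PNX, and 5 of its 11 genes rose, all of them matrix genes (Col1a1, Col1a2, Col3a1, Dcn and Lum). With the deposit term 3.89% of all genes tested were called higher. The fibroblast markers that are not matrix genes went in both directions and were not called: Pdgfra was at -0.49, Tcf21 at -0.34, Wnt2 at -0.37, Meox2 at 0.07, Pi16 at 0.45 and Gli1 at 1.14 with the deposit term. Gli1 was past the fold threshold but not the p threshold (edgeR adjusted p = 0.0152). It had 2.13, 1.97 and 5.32 CPM in sham and 6.46, 6.21 and 8.01 in PNX, without overlap.

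Mesothelial markers summed to 232 to 502 CPM in sham and 417 to 1024 in PNX, with 5 of 7 higher with the deposit term (Msln, Wt1, Upk3b, Lrrn4 and Bnc1) and the highest sums in replicate 3 of each group. In this fit 3.89% of all genes tested were called higher and 1.23% lower. Macrophage markers summed to 2299 to 4240 CPM in sham and 3119 to 4133 in PNX, with 4 of 8 higher (Marco, C1qa, C1qb and C1qc). Lyz2 made up most of these sums, at 1978 to 3549 CPM in sham and 2276 to 3048 in PNX, and was at -0.0069 with the deposit term. C1qa, C1qb and C1qc were at 9.24 to 21.6 CPM in sham and 73.5 to 99.8 in PNX. Of 10 smooth muscle and pericyte genes, Rgs5 alone was called, and it was higher, at 1.89 ± 0.15 with the deposit term (edgeR adjusted p = 0.000228). It had 3.10, 3.22 and 3.95 CPM in sham and 14.0, 13.0 and 12.3 in PNX. Acta2 and Myh11 were at 0.11 and -0.50 and were not called. The 10 genes summed to 460 to 599 CPM in sham and 433 to 600 in PNX. Of 9 alveolar epithelial genes, 4 were lower (Sftpb, Sftpa1, Lamp3 and Rtkn2). Platelet markers summed to 48.0 to 66.7 CPM in sham and 60.7 to 70.3 in PNX, with Pf4 of 6 higher, and adipocyte markers to 28.9 to 56.0 and 27.6 to 40.6 CPM, with Adipoq of 4 tested higher. Most of the adipocyte sum was Cidec, at 28.6 to 55.5 CPM in sham and 24.9 to 39.0 in PNX. Cidec was at -0.36 with the deposit term, and Adipoq, Plin1 and Retn were at 6.54, 2.06 and 1.73. Those last genes were near the floor, with means of 1.04 CPM or less in PNX. No marker list was at 0 in every gene, and the part of these cells in the matrix gene differences was not tested.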

How the data were processed

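RNA of bead-isolated lung ECs was sequenced on paired ends after a stranded mRNA library kit. The submitters' processing notes name STAR and mm10. The authors deposited a count for each of 33068 RefSeq transcripts in each library, with FPKM and TPM (counts scaled by transcript length and library). Not given in the sources used here are how fragments were counted and which annotation release was used. The deposited counts were summed per symbol and tested, TPM of the most counted transcript served for levels, and the deposited FPKM values entered nothing.

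Replicates 1 and 2 of a group differed little beyond counting error, by a chi-square of the genes that have a single transcript and 20 counts or more, and were summed. The main test was that of edgeR 4.0.16 under R 4.3.3 (scaling by TMM, filterByExpr, estimateDisp, glmQLFit, glmQLFTest), with DESeq2 1.42.0 and limma 3.58.1 (voom) as alternatives, and with other scalings, filters and transcript summaries and each library left out. A standard error is the log2 fold change over the square root of F. CPM values use TMM-scaled library sizes, log2 ratios within a deposit are of these CPM, and SDs stand on 2 samples.

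The re-used mark falls on the same replicates of both groups, and the groups were paired by it as the deposit. Across 13911 genes with a mean count of at least 100, the later minus the earlier deposit gave like values in both groups (Spearman's rho = 0.745 and Pearson's r = 0.734, a description over genes), and edgeR's biological coefficient of variation was 0.236 without and 0.0973 with the deposit term. Results are therefore given with the term beside those without.

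The members, role groups and marker lists were chosen with earlier results of these data known. In each role group the member with the highest mean CPM and the 2 with the highest and 2 with the lowest fold change are given by library (all in groups of 4 or fewer), with Fn1, Eln, Tnc, Thbs2 and Postn in any case. In other lists the 2 highest and 2 lowest are named. Efemp2, Thbs1, Thbs4, Lox and the markers named were added after their values were seen. Some listed markers were not analysed here. The fits were also run on counts simulated from the edgeR model with the deposit term. Such counts hold the pairing by construction, so they cannot show whether it holds in the real libraries. Positions are from GENCODE vM21 on GRCm38, promoters from RefSeq.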

Additional observations from a re-analysis of the deposited data

Results flagged for a closer look

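Thbs4, which encodes thrombospondin 4, went in opposite directions in the deposits. Its log2 ratio of CPM, PNX over sham, was 3.34 in the earlier deposit and -0.80 in the later, from 7, 7 and 44 counts in the sham libraries and 81, 52 and 22 counts in the PNX libraries. Every library of the earlier deposit moved one way and the single pair of the later deposit the other, and the difference between the deposits was not tested. With the deposit term the log2 fold change was 1.28 ± 0.84 and was not called (edgeR adjusted p = 0.319).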

How the results depend on the processing

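With 2 samples a group, the count of members called depended on the fit. It was 0 without the replicate block (the deposit as a term) under edgeR with every scaling, filter, transcript summary and library left out, at an adjusted p under 0.05 too, and under limma's voom, with 0 called over all genes except 2 without PNX replicate 3. DESeq2 called 12 members and 572 genes. With the replicate block 15 members and 849 genes were called, 13 and 810 with DESeq2, 12 and 624 with DESeq2 size factors, 12 and 629 with library size alone, 14 and 727 with the transcript of the highest total, and 12 and 643 with identical transcripts counted once (these last 2 chosen after seeing the data). Over all genes the split of higher and lower was 645 and 204 under TMM, 540 and 84 under DESeq2 size factors, and 550 and 79 under library size alone. Leaving out a library within the replicate block gave 13 members and 671 genes without sham replicate 1, 11 and 668 without sham replicate 2, 11 and 485 without PNX replicate 1, and 15 and 863 without PNX replicate 2. Without replicate 3 of a group the block could not be fitted, since no residual degree of freedom is left. In all 10 fits with the replicate block 11 members were called. Of the other 4, Fbn2 was called in 8 of the 10 fits, Cthrc1 and Spp1 in 4 each, and Emilin2 in 2. As 6 separate libraries, 7 members and 409 genes were called, and 14 and 921 with DESeq2.

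The median log2 fold change of the members stayed between 0.60 and 0.74 over 28 alternatives. Of 1287 values of single members under an alternative, 18 changed sign, all of members not called. Thbs1 came to 0.0249 with 6 libraries under edgeR and 0.0228 under DESeq2. Mmrn2 came to -0.00501 under upper-quartile scaling, and to -0.00993 and -0.000988 with the replicate block without sham replicate 1 or PNX replicate 1. With single libraries left out the ranges were -0.0294 to 0.0314 for Mmrn2, -0.27 to 0.50 for Thbs1, -0.000639 to 0.39 for Thbs3, -0.15 to 0.0908 for Mfap2, -0.37 to 0.21 for Efemp1, -0.33 to 0.0945 for Npnt, -0.61 to 0.0582 for Edil3, -0.12 to 0.0829 for Mfge8, -0.16 to 0.11 for Sparcl1, -0.49 to 0.57 for Smoc2 and -0.41 to 0.45 for Matn4. The cause was not tested.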
